A study of Homo sapiens with 40 samples.

Results

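The MYC, MAX and MXD network is a small family of transcription factors, followed here through the RNA of 10 genes in BT474 and BT474R breast cancer cells treated with HER family ligands. The members were the rows of the deposited count table whose gene name was MYC, MYCN, MYCL, MAX, MXD1, MXI1, MXD3, MXD4, MNT or MLX, which gave 10 of the 44584 names in the table. The choice was made by gene name, with earlier results of these data known, and all 10 members passed the filter on low counts in each fit.

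MYC, MYCN and MYCL are basic helix-loop-helix leucine zipper proteins that bind DNA as pairs with MAX, at a short motif called the E-box, and raise transcription of genes for ribosome building, metabolism and growth. MXD1, MXI1, MXD3, MXD4 and MNT also pair with MAX, compete with the MYC proteins for the same motif and recruit SIN3 corepressors, so they are described as antagonists. MLX is a second partner that can pair with some MXD proteins and MNT and with the glucose-sensing factors MondoA (MLXIP) and ChREBP (MLXIPL). In breast cancer cells, MYC is known as an early target of growth factor signaling through the HER receptors.

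BT474 is a HER2-positive breast ductal carcinoma line that responds to the antibody trastuzumab, and BT474R is a resistant clone that was derived from BT474 cells grown with trastuzumab. BT474R therefore stands for 1 clone, and clonal differences and resistance cannot be told apart. Both lines were serum starved and collected at T0, or placed in fresh starvation medium with epidermal growth factor (EGF, a ligand of EGFR), heregulin (HRG, a ligand of HER3 and HER4) or water as vehicle, and collected after 1 h, 12 h or 24 h. Every vehicle control thus shared the starvation and the medium change with the ligand samples, while T0 shared only the starvation. EGF and HRG were given at different concentrations, so ligand and concentration cannot be told apart where they are compared with each other. Each of the 20 groups had 2 libraries, named here as replicates 1 and 2, and nothing in the labels states that they came from separate passages, so p-values measure the spread between these libraries.

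BT474 libraries held between 19200632 and 29098915 counts and BT474R libraries between 16794594 and 33387936, and the spread between replicates exceeded counting noise in each of the 20 groups. All 8 luminal HER2-positive markers were above 1 CPM in both lines, where CPM is the count of a gene scaled to its library total with TMM factors, and ERBB2 averaged 7463 CPM in BT474 and 8926 CPM in BT474R. In each of the lists for other cell types, 1 marker averaged above 1 CPM. These were TP63 of the 3 basal markers (6.05 CPM in BT474 and 1.45 CPM in BT474R), COL1A1 of the 3 fibroblast markers (89.1 CPM and 213 CPM), VWF of the 2 endothelial markers (17.9 CPM and 11.4 CPM) and CD68 of the 3 leukocyte markers (2.22 CPM and 2.21 CPM). The lowest marker of each list, KRT14, PDGFRB, PECAM1 and CD3E, averaged under 0.1 CPM in both lines, and the part of these markers in the line differences was not tested. In these bulk samples, fewer cells expressing a gene and less RNA per cell cannot be told apart. At 24 h in BT474R, replicate 2 was above replicate 1 for 9 of the 10 members in vehicle and for 8 of 10 in HRG, so calls at that time point that those libraries changed are given with and without them. Replicate 2 was also higher for 9 of 10 members in BT474R with HRG at 12 h. The median log2 difference was 0.14 there, against 0.29 in vehicle and 0.22 with HRG at 24 h.

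Promoter windows of 300 bases, from 250 before the start to 50 after it, were read from RefSeq on GRCh38.p14 for 9 of the 10 members, with 12 windows in all. The E-box CACGTG was found in the windows of 3 members, MXD4, MNT and MLX, against 7.26% of 35116 RefSeq promoter windows. These 3 windows are printed because the genes moved differently after ligand in BT474, with MXD4 lower and MLX higher at 12 h and 24 h, and MNT higher at 1 h with either ligand and lower at 12 h with HRG. Capitals mark the motif matches, and each sequence runs 5′ to 3′ along its gene.
MXD4, chr4:2262060-2262359, minus strand: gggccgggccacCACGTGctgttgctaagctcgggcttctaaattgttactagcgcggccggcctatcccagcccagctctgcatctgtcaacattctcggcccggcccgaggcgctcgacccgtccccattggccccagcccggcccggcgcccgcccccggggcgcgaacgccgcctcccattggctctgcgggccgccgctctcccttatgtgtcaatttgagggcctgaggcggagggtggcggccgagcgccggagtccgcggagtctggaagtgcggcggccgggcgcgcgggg
MNT, chr17:2401011-2401310, minus strand: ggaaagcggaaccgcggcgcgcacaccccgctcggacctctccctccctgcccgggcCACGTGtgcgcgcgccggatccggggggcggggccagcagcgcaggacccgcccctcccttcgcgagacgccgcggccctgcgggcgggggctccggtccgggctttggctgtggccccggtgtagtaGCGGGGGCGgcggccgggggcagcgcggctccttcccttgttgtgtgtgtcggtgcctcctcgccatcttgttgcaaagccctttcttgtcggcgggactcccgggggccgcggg
MLX, chr17:42566850-42567149, plus strand: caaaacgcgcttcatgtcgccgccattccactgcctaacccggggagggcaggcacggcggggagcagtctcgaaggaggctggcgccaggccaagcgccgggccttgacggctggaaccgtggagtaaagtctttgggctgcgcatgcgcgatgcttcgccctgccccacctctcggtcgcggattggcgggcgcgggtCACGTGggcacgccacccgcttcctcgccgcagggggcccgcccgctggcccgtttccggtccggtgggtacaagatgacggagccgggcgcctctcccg
Relative to the start, the first base of the E-box lay at -238 in MXD4, at -193 in MNT and at -50 in MLX. The second run of capitals in MNT is GCGGGGGCG, a match to the EGR motif GCGNGGGCG, which 9.43% of the windows held. The AP-1 motif TGANTCA was found in the MXD3 window and in 7.71% of all windows, and the CRE motif TGACGTCA in no member window and in 1.85% of all windows. All motifs were searched on both strands, and a match of letters is a description of the window, not a binding site.

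The lines differed first of all in the levels of the MYC genes, all of which were counted in every library of both lines. At T0, MYC RNA was 47.5 CPM and 49.9 CPM in the libraries of BT474 and 3.84 CPM and 3.93 CPM in those of BT474R. Every BT474 library lay far above every BT474R library in the plot of CPM by group, and the difference was -3.64 on the log2 scale (SE 0.12, adjusted p = 2.66e-24), which is 12.5-fold lower in BT474R. MYC was lower in BT474R in vehicle as well, by log2 differences of -2.66 after 1 h, -3.51 after 12 h and -4.56 after 24 h. Over all treatments, MYC ranged from 31.7 CPM to 131 CPM in BT474 (median 39.7 CPM) and from 1.23 CPM to 15.9 CPM in BT474R (median 5.30 CPM), so the highest BT474R library stayed under the lowest BT474 library. The lowest value, in BT474R vehicle replicate 1 at 24 h, rested on 32 counts.

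**Figure D1:**
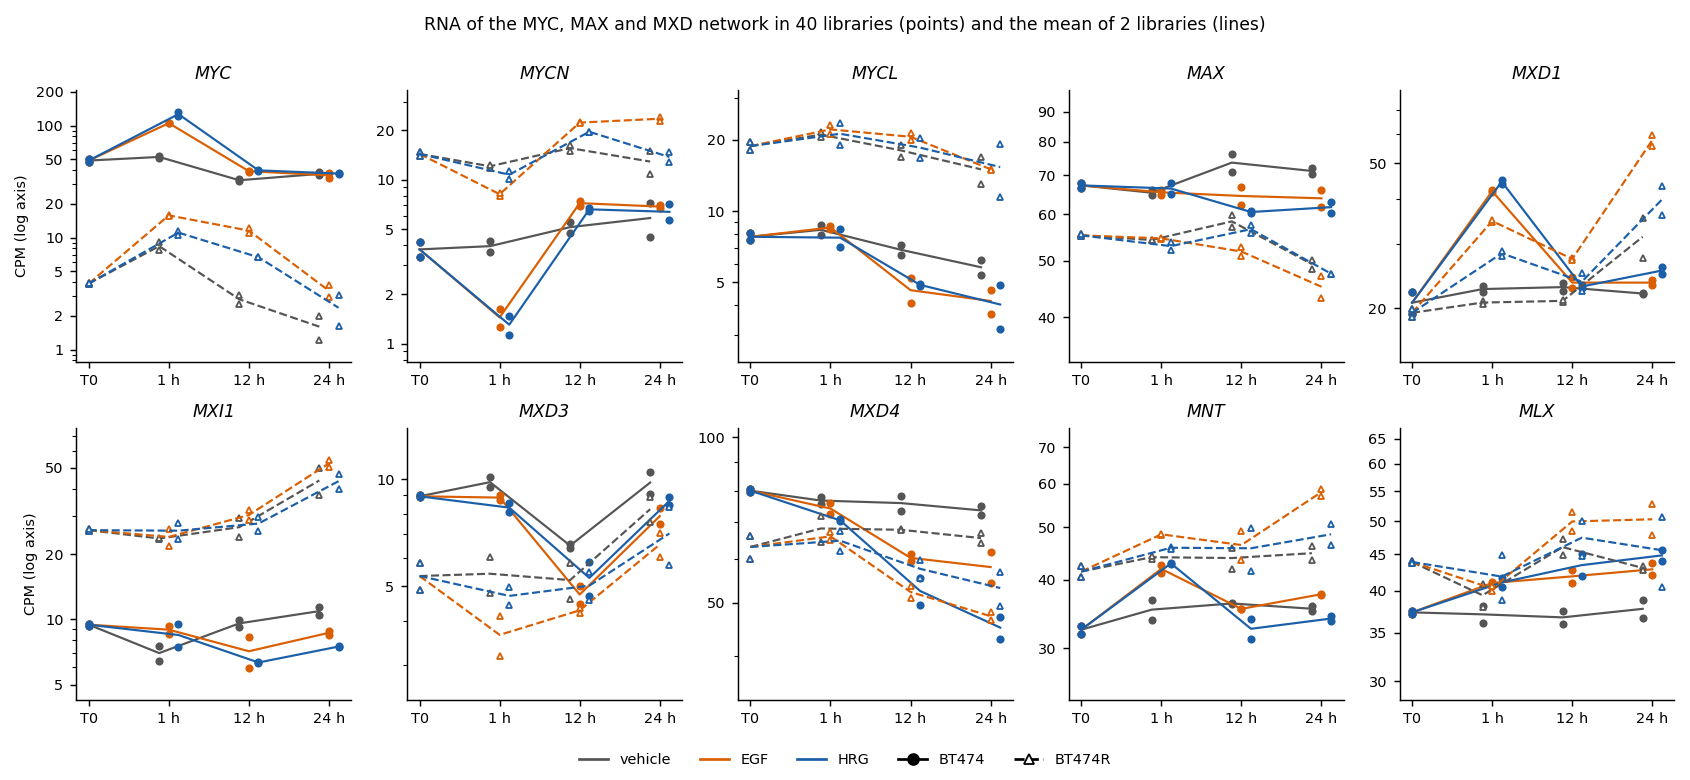
CPM (log axis) of the 10 members against time in 40 libraries, with a point per library, a line through the mean of 2 libraries, filled circles for BT474 and open triangles for BT474R, in grey for vehicle, orange for EGF and blue for HRG. MYC of BT474R (1.23 to 15.9 CPM) lies under all of BT474 (31.7 to 131 CPM), while MYCN, MYCL and MXI1 of BT474R lie above all of BT474.

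MYCN and MYCL, the paralogs best known from neuroblastoma and small cell lung cancer, went the other way. MYCN at T0 was 3.36 CPM and 4.16 CPM in BT474 and 14.7 CPM and 14.0 CPM in BT474R, a log2 difference of 1.94 (SE 0.16, adjusted p = 7.12e-13), and MYCL was 8.04 CPM and 7.53 CPM in BT474 and 18.1 CPM and 19.5 CPM in BT474R, a difference of 1.27 (SE 0.17, adjusted p = 4.81e-08). Neither gene overlapped between the lines in any library, since MYCN stayed between 1.13 CPM and 7.44 CPM in BT474 and between 8.01 CPM and 24.2 CPM in BT474R, and MYCL between 3.20 CPM and 8.74 CPM and between 11.5 CPM and 23.4 CPM. In vehicle, the MYCN difference was 1.62 after 1 h, 1.61 after 12 h and 1.11 after 24 h, and that of MYCL was between 1.33 and 1.39. The MYCN difference at 24 h ranged from 0.82 to 1.48 when each library was left out in turn, and stayed called each time.

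Among the antagonists, MXI1 was the one with the largest line difference. Its libraries read 9.55 CPM and 9.34 CPM in BT474 at T0 and 25.5 CPM and 26.0 CPM in BT474R, a log2 difference of 1.45 (SE 0.14, adjusted p = 5.29e-11), and in vehicle the difference lay between 1.48 and 2.00. MXD3 was lower in BT474R at T0 (-0.75, SE 0.16, adjusted p = 1.29e-04) and in vehicle at 1 h (-0.87), with 8.89 CPM and 9.00 CPM in BT474 at T0 against 5.82 CPM and 4.87 CPM. MNT, a ubiquitous antagonist, was higher in BT474R by between 0.28 and 0.35 in all 4 comparisons, with 32.9 CPM and 31.9 CPM at T0 in BT474 and 42.4 CPM and 40.4 CPM in BT474R. The 12 h call of MNT was lost without BT474R vehicle replicate 2 (0.19). MXD4 differed by -0.34 at T0 (adjusted p = 9.96e-05), while its differences in vehicle, -0.17, -0.16 and -0.17, were near the threshold. The 1 h call was lost without BT474R vehicle replicate 1 (-0.12) or BT474 vehicle replicate 1 (-0.17), the 12 h call in 12 of 40 left-out libraries, and the 24 h call without BT474R vehicle replicate 1 (-0.17), replicate 2 (-0.20) or BT474 vehicle replicate 1 (-0.15).

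MXD1, an antagonist induced during differentiation, did not pass the test at T0 (-0.09, adjusted p = 0.476) and was called in vehicle only at 24 h (0.51, SE 0.09, adjusted p = 4.7e-06), a difference that was 0.33 without BT474R vehicle replicate 2. The shared partner MAX was lower in BT474R in all 4 comparisons, with 68.0 CPM and 66.6 CPM in BT474 and 55.0 CPM and 55.5 CPM in BT474R at T0 (-0.28, SE 0.05, adjusted p = 2.58e-05) and a difference of -0.53 in vehicle at 24 h. MLX was higher at T0 (0.23, adjusted p = 0.0143), at 12 h (0.32) and at 24 h (0.19). The T0 call of MLX was lost in 13 of 40 left-out libraries and the 24 h call in 21 of 40, and 1 of 7 other settings kept the 24 h call.

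Of the 10 members, 9 were called between the lines at T0 (46.9% of all genes tested), 8 in vehicle at 1 h (50.2%), 8 at 12 h (49.0%) and 9 at 24 h (49.3%). Between 46.9% and 50.2% of all genes were called as well. The members were called more often than that, and an excess over all genes was not tested.

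**Figure D2:**
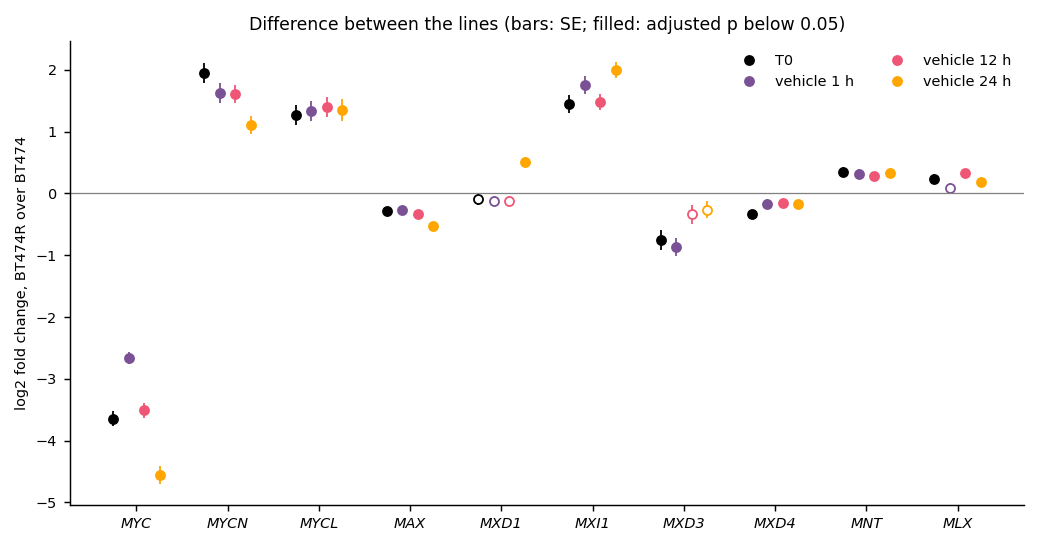
Log2 fold change of BT474R over BT474 for each member (vertical axis), with a point for T0 and for each vehicle time, SE bars, and filled points where the adjusted p was below 0.05. MYC lies between -4.56 and -2.66, while MYCN, MYCL and MXI1 lie between 1.11 and 2.00.

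Divided by the length of the MANE Select transcript, which allows levels of different genes to be compared, MAX led in both lines at T0, with 33.5 ± 0.51 CPM per kilobase in BT474 and 27.5 ± 0.15 in BT474R (SD, n = 2). In BT474, MYC came after MAX, MXD4 and MLX at 13.1 ± 0.46 CPM per kilobase, above MYCL at 2.21 ± 0.10 and MYCN at 1.44 ± 0.21. In BT474R, MYC was the lowest member at 1.04 ± 0.02 CPM per kilobase, and MYCN at 5.50 ± 0.18, MYCL at 5.33 ± 0.28 and MXD3 at 5.01 ± 0.63 differed by less than their spread. MXI1 moved from 2.72 ± 0.04 to 7.42 ± 0.11 CPM per kilobase, next to MNT at 8.41 ± 0.29 in BT474R. These levels assume the length of 1 transcript per gene.

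Ligands were compared with the vehicle of the same line and time point. EGF-BT474 changed 4 members at 1 h (2.19% of all genes called), 8 at 12 h (16.0%) and 5 at 24 h (16.4%), and HRG-BT474 changed 4 at 1 h (2.77%), 8 at 12 h (25.8%) and 5 at 24 h (24.1%). EGF-BT474R changed 3 members at 1 h (0.457%), 4 at 12 h (12.0%) and 5 at 24 h (17.3%). HRG-BT474R changed 0 members at 1 h (0.169%), 2 at 12 h (4.12%) and 1 at 24 h (2.78%). At an unadjusted p below 0.05, 2 members passed at 1 h in HRG-BT474R, MYC and MXD1, and DESeq2 called 1 of them, MXD1.

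**Figure D3:**
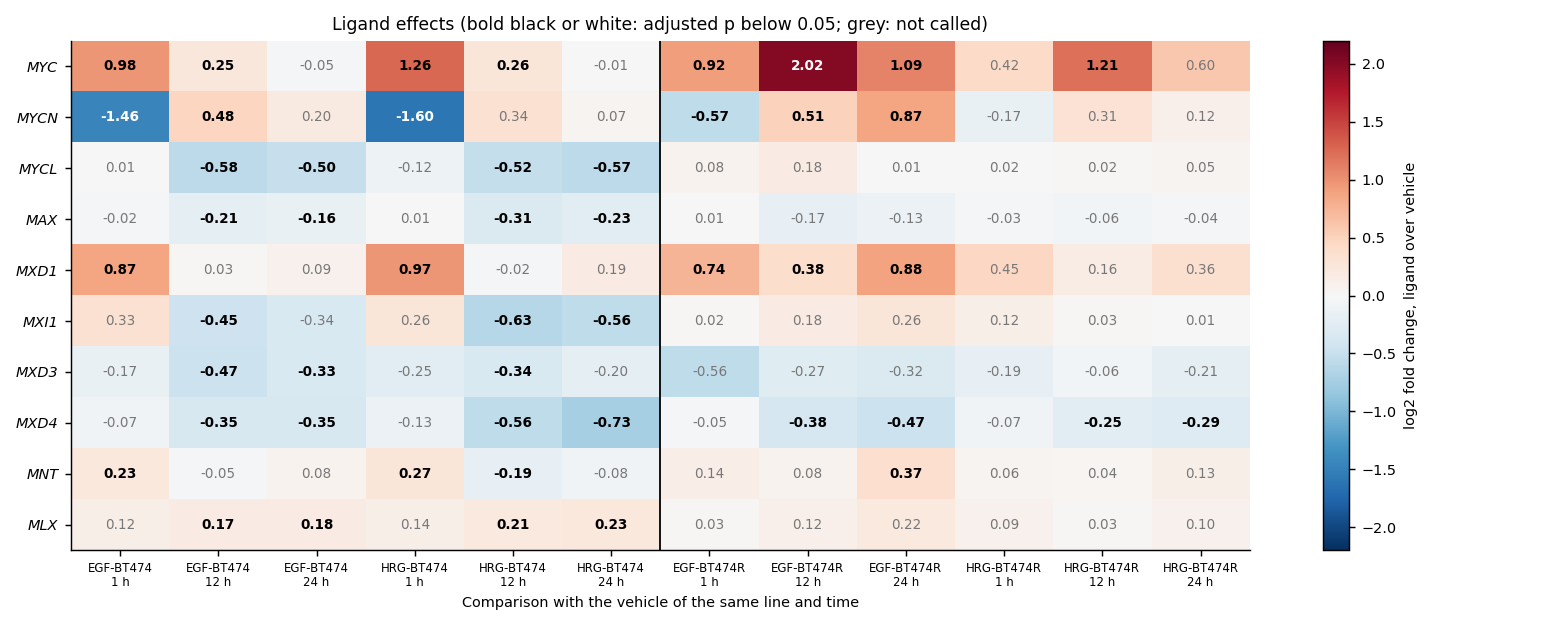
Log2 fold change of ligand over vehicle (color and number) for the 10 members (rows) in 12 comparisons (columns), with called values in bold black or white and the others in grey. At 1 h in BT474, MYC (0.98 and 1.26), MXD1 (0.87 and 0.97) and MNT rise while MYCN falls (-1.46 and -1.60), and at 12 h and 24 h MXD4 falls in both lines.

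MYC rose within 1 h of either ligand in BT474. Vehicle libraries at 1 h read 51.0 CPM and 54.0 CPM, EGF libraries 105 CPM and 105 CPM, and HRG libraries 122 CPM and 131 CPM. No ligand library came near the vehicle libraries, with a log2 fold change of 0.98 for EGF (SE 0.06, adjusted p = 9.48e-17) and 1.26 for HRG (SE 0.06, adjusted p = 3.06e-20). HRG-BT474 was above EGF-BT474 at 1 h by 0.28 (SE 0.05, adjusted p = 0.00397, with 0.139% of all genes called). That call was lost without EGF replicate 1 (0.27), EGF replicate 2 (0.29) or HRG replicate 2 (0.22), and when only the 4 libraries compared or both lines together were fitted.

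By 12 h the MYC effect in BT474 was small, with 33.3 CPM and 31.7 CPM in vehicle, 38.6 CPM and 39.7 CPM with EGF and 39.7 CPM and 39.97 CPM with HRG. The fold changes were 0.25 for EGF (adjusted p = 0.00399) and 0.26 for HRG (adjusted p = 0.00118), and the EGF call was lost without EGF replicate 2 (0.23). At 24 h, vehicle (38.2 CPM and 35.9 CPM), EGF (34.1 CPM and 37.8 CPM) and HRG (37.1 CPM and 37.4 CPM) overlapped, and the fold changes of -0.05 and -0.01 did not pass the test. The effect at 12 h minus that at 1 h was -0.73 for EGF and -0.997 for HRG on the log2 scale (adjusted p = 6.12e-08 and 1.04e-11).

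In BT474R the MYC response to EGF was low in level but lasted longer. At 1 h, vehicle libraries read 9.09 CPM and 7.68 CPM and EGF libraries 15.9 CPM and 15.6 CPM (0.92, SE 0.15, adjusted p = 0.002). At 12 h, vehicle was 2.53 CPM and 3.10 CPM and EGF 12.1 CPM and 11.0 CPM, a fold change of 2.02 (SE 0.18, adjusted p = 7.51e-08) and the largest ligand effect on any member. At 24 h, vehicle was 1.23 CPM and 1.98 CPM and EGF 2.92 CPM and 3.78 CPM (1.09, SE 0.25, adjusted p = 0.00327). Mean MYC in vehicle fell over these times, from 8.39 CPM at 1 h to 2.82 CPM at 12 h and 1.60 CPM at 24 h. With EGF the mean also fell, from 15.8 CPM to 11.5 CPM and 3.35 CPM, against 3.89 CPM at T0. The 1 h call was lost without vehicle replicate 2 (0.79), and the 24 h call without vehicle replicate 1 (0.77) or EGF replicate 2 (0.90).

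HRG raised MYC in BT474R at 12 h, where its libraries read 6.66 CPM and 6.69 CPM (1.21, SE 0.19, adjusted p = 4.14e-04). At 1 h, HRG libraries read 11.6 CPM and 10.6 CPM and lay above both vehicle libraries, but the fold change of 0.42 did not pass the test. At the last time point they read 1.63 CPM and 3.10 CPM and overlapped with vehicle (0.60, adjusted p = 0.305, and 0.99 and called without HRG replicate 1). At 12 h, the difference of HRG from EGF in BT474R was -0.81 (adjusted p = 0.00806, with 1.42% of all genes called), a call lost without EGF replicate 1 (-0.73), HRG replicate 1 (-0.81) or HRG replicate 2 (-0.81).

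The ligand effects on MYC were compared between the lines directly, as the effect in BT474R minus that in BT474. For EGF the difference was 1.75 at 12 h (SE 0.17, adjusted p = 7.32e-09, with 1.96% of all genes called) and 1.14 at 24 h (SE 0.23, adjusted p = 0.00117, 4.01% called). For HRG it was -0.85 at 1 h (SE 0.14, adjusted p = 2.18e-04, 0.544% called) and 0.94 at 12 h (SE 0.18, adjusted p = 0.00101, 4.07% called). The fold change in BT474R was thus the smaller one at 1 h with HRG and the larger one at 12 h with both ligands, from a low vehicle level. The 24 h difference was lost without BT474R vehicle replicate 1 (0.81) or EGF replicate 2 (0.94).

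Other comparisons at 24 h in BT474R were not called with all libraries and were called without 1 of the vehicle or HRG libraries. For MYC, HRG against EGF was -0.49, and -1.03 without HRG replicate 2, and the HRG effect in BT474R minus BT474 was 0.58, and 0.97 without HRG replicate 1. The EGF effect in BT474R minus BT474 was 0.67 for MYCN and 0.60 for MXI1, and 0.90 and 0.82 without vehicle replicate 2. Both were also called, at 0.67 and 0.60, without either HRG replicate. With all libraries, MYCN was called with summed copy rows, a replicate block, DESeq2 size factors and the other filters (0.66 to 0.69). MXI1 was called with a replicate block (0.59) and without the filter (0.60). The HRG effect between the lines went from 0.59 to 0.91 for MYCL, from 0.53 to 0.65 for MXI1 and from -0.17 to -0.34 for MLX without HRG replicate 1, and that of MXI1 was 0.75 without vehicle replicate 2. HRG against EGF in BT474R went from -0.24 to -0.31 for MNT and from 0.19 to 0.29 for MXD4 without HRG replicate 2, and from -0.13 to -0.30 for MLX without HRG replicate 1. The EGF effect on MXD1 in BT474R at 24 h minus that at 12 h was 0.50, and it was called without either HRG replicate of 24 h (0.50) or without vehicle replicate 2 (0.70). MYCN in vehicle at 24 h differed from T0 by -0.15, and by -0.40 without vehicle replicate 2.

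MYCN moved against MYC at 1 h in BT474. Vehicle libraries read 4.26 CPM and 3.61 CPM, EGF libraries 1.62 CPM and 1.27 CPM, and HRG libraries 1.13 CPM and 1.48 CPM. All 4 ligand libraries were far below the lower vehicle library, with fold changes of -1.46 for EGF (SE 0.23, adjusted p = 2.15e-05) and -1.60 for HRG (SE 0.25, adjusted p = 1.69e-05). At 12 h, MYCN was 4.73 CPM and 5.55 CPM in vehicle and 7.44 CPM and 6.96 CPM with EGF (0.48, adjusted p = 0.0361), while HRG with 6.43 CPM and 6.77 CPM did not pass (0.34). The EGF call at 12 h was lost without vehicle replicate 1 (0.36), EGF replicate 1 (0.43) or EGF replicate 2 (0.52), and with DESeq2. From 1 h to 12 h the effect on MYCN shifted by 1.94 for EGF and by 1.94 for HRG (adjusted p = 4.08e-06 and 5.23e-06).

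In BT474R, EGF lowered MYCN at 1 h from 11.8 CPM and 12.3 CPM to 8.01 CPM and 8.32 CPM (-0.57, adjusted p = 0.0317), a call that was lost in 8 of 20 left-out libraries, with values between -0.59 and -0.54. EGF raised it at 12 h from 14.99 CPM and 16.2 CPM to 22.6 CPM and 22.1 CPM (0.51, adjusted p = 0.00236) and at 24 h from 10.9 CPM and 14.9 CPM to 24.2 CPM and 23.0 CPM (0.87, SE 0.11, adjusted p = 5.21e-06). HRG left MYCN uncalled at the 3 time points (-0.17, 0.31 and 0.12), and at 24 h its difference from EGF was -0.76 (adjusted p = 9.3e-05, with 5.18% of all genes called), a call lost when only the 4 libraries compared were fitted. The HRG effect at 1 h was less negative in BT474R than in BT474 by 1.42 (SE 0.28, adjusted p = 0.00451), a call lost without BT474 HRG replicate 1 (1.23) or BT474 vehicle replicate 1 (1.28).

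MYCL fell in BT474 at 12 h and 24 h. At 12 h, vehicle libraries read 7.18 CPM and 6.55 CPM, EGF libraries 5.20 CPM and 4.08 CPM, and HRG libraries 4.83 CPM and 4.93 CPM (-0.58 and -0.52, adjusted p = 0.00623 and 0.00609). At 24 h, vehicle read 5.36 CPM and 6.23 CPM, EGF 3.69 CPM and 4.66 CPM, and HRG 3.20 CPM and 4.88 CPM (-0.50 and -0.57). Each of these 4 calls was lost without 1 or 2 of the libraries compared and in 1 fit of both lines. The widest range was that of HRG at 24 h, -0.29 without HRG replicate 1, -0.44 without vehicle replicate 2 and -0.88 without HRG replicate 2. For EGF, the value was -0.43 without EGF replicate 2 and -0.51 without vehicle replicate 1 at 12 h, and -0.32 without EGF replicate 1 and -0.37 without vehicle replicate 2 at 24 h. HRG at 12 h gave -0.45 without vehicle replicate 1. The effect at 1 h was 0.01 for EGF and -0.12 for HRG, and its change from 1 h to 12 h was not called (-0.59, adjusted p = 0.0692, and -0.40, adjusted p = 0.209). In BT474R, MYCL was not called after either ligand, and its libraries stayed between 11.5 CPM and 23.4 CPM. Tested between the lines, the EGF effect on MYCL at 12 h in BT474R minus BT474 was 0.75. This difference was not called, but was called without the filter.

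HRG and EGF were also compared with each other, and 6 of 60 tests of members were called, against 1.61% of the tests of all genes. They lay in BT474 at 1 h (MYC), 12 h (MXD4) and 24 h (MXD4) and in BT474R at 12 h (MYC) and 24 h (MYCN and MXD1). At 1 h in BT474R, 0 members were called (0.0494% of all genes), with 3 members at an unadjusted p below 0.05, MYC (-0.50), MYCN (0.40) and MXD1 (-0.29), and 0 called by DESeq2. MYC was called there in 1 fit of both lines (-0.51).

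MAX, the partner with which the MYC proteins bind DNA, fell slightly in BT474 at 12 h and 24 h. With HRG it went from 76.2 CPM and 71.0 CPM in vehicle to 60.4 CPM and 60.7 CPM at 12 h (-0.31, SE 0.05, adjusted p = 4.91e-06) and from 72.0 CPM and 70.5 CPM to 60.4 CPM and 63.1 CPM at 24 h (-0.23, adjusted p = 5.47e-04). With EGF the changes were -0.21 at 12 h (adjusted p = 0.00285) and -0.16 at 24 h (adjusted p = 0.0215). These EGF calls were lost at 12 h without EGF replicate 2 (-0.16) or vehicle replicate 1 (-0.15), and at 24 h without vehicle replicate 1 (-0.14), vehicle replicate 2 (-0.17) or EGF replicate 2 (-0.13). No MAX change was called in BT474R, where the 6 fold changes lay between -0.17 and 0.01. The lowest, EGF at 12 h, was called in 4 of 8 other settings (-0.18 to -0.17) and when any of 5 of the 20 libraries, all from 24 h, was left out. Tested between the lines, the HRG effect on MAX at 12 h in BT474R minus BT474 was 0.24 and not called. It was called with DESeq2, with DESeq2 size factors and with another filter.

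Of the antagonists, MXD1 followed MYC at 1 h. In BT474 its libraries went from 23.0 CPM and 22.2 CPM in vehicle to 41.6 CPM and 42.2 CPM with EGF and 43.96 CPM and 45.0 CPM with HRG (0.87 and 0.97, adjusted p = 3.04e-12 and 1.74e-13). The vehicle and ligand libraries were far apart at 1 h and close at 12 h, where fold changes of 0.03 and -0.02 did not pass. The effect at 12 h minus that at 1 h was -0.84 for EGF and -0.99 for HRG. At 24 h in BT474, HRG libraries read 24.8 CPM and 25.9 CPM against 22.1 CPM and 21.9 CPM in vehicle (0.19, not called). That difference was called with another filter, summed copy rows, a replicate block or DESeq2 size factors. In BT474R, EGF raised MXD1 at 1 h from 20.9 CPM and 20.6 CPM to 34.5 CPM and 34.9 CPM (0.74, SE 0.10, adjusted p = 1.38e-04) and at 24 h from 27.6 CPM and 35.3 CPM to 59.8 CPM and 55.8 CPM (0.88, SE 0.10, adjusted p = 6.16e-07). The change at 12 h was 0.38 (adjusted p = 0.0171) and was lost when any of its 4 libraries was left out (0.36 to 0.40).

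With HRG in BT474R, MXD1 libraries at 1 h read 27.9 CPM and 28.7 CPM and lay above both vehicle libraries, but the fold change of 0.45 did not pass the test (adjusted p = 0.0952). It was called with DESeq2, without the filter, in 1 fit of both lines and in a fit of the 4 libraries alone. The HRG effect on MXD1 at 1 h differed by -0.53 in BT474R minus BT474 (adjusted p = 0.0209), a call lost without any of 7 of the 8 libraries compared (-0.55 to -0.50). At 24 h, the EGF effect was higher in BT474R by 0.79 (SE 0.12, adjusted p = 2.02e-05), and the difference of HRG from EGF in BT474R was -0.53 (adjusted p = 9.81e-04), which was not called when only the 4 libraries compared were fitted. HRG at 24 h gave 36.2 CPM and 43.3 CPM (0.36, adjusted p = 0.0532), and it was called without HRG replicate 1 (0.48) or vehicle replicate 2 (0.55). It was also called with DESeq2, without the filter, with a replicate block and in 1 fit of both lines (0.34 to 0.36).

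MXI1 fell in BT474 at the later times. HRG took it from 9.97 CPM and 9.19 CPM to 6.26 CPM and 6.39 CPM at 12 h (-0.63, SE 0.13, adjusted p = 1.57e-04) and from 11.4 CPM and 10.4 CPM to 7.44 CPM and 7.54 CPM at 24 h (-0.56, adjusted p = 4.83e-04). With EGF, libraries at 12 h read 5.95 CPM and 8.31 CPM (-0.45, adjusted p = 0.0107). It was -0.22 without EGF replicate 1 and -0.39 without vehicle replicate 1, neither of them called, and -0.71 without EGF replicate 2, which was called. The EGF effect at 24 h was -0.34 and not called. It was called with a replicate block, with summed copy rows and with the other filters (-0.34 to -0.33). In BT474R no ligand effect on MXI1 was called, and its 6 fold changes were between 0.01 and 0.26, of which EGF at 24 h was 0.49 and called without vehicle replicate 2. Tested between the lines at 12 h, as BT474R minus BT474, the effect on MXI1 was 0.65 with HRG and 0.62 with EGF, neither called. The HRG difference was called with DESeq2, with a replicate block and without the filter, and the EGF difference without the filter.

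MXD4 was called lower in 8 of the 12 ligand comparisons, all of those at 12 h and 24 h, against 16.0% to 25.8% of all genes called in either direction in BT474 and 2.78% to 17.3% in BT474R at these times. In BT474 at 24 h, vehicle libraries read 75.0 CPM and 72.3 CPM, EGF libraries 61.8 CPM and 54.3 CPM, and HRG libraries 47.2 CPM and 43.0 CPM. The groups did not overlap, with fold changes of -0.35 for EGF and -0.73 for HRG (SE 0.06 each, adjusted p = 2.62e-05 and 2.72e-12), and the difference of HRG from EGF was -0.38 (adjusted p = 4.09e-04, with 0.768% of all genes called), a call lost when only the 4 libraries compared were fitted (-0.36). At 12 h the changes were -0.35 and -0.56, and that difference was -0.22 (adjusted p = 0.0462, with 2.17% of all genes called), a call lost in 8 of 20 left-out libraries (-0.15 without HRG replicate 2, -0.19 and -0.25 without EGF replicate 2 and 1).

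In BT474R, EGF lowered MXD4 from 68.0 CPM and 67.7 CPM to 51.1 CPM and 53.6 CPM at 12 h (-0.38, adjusted p = 9.53e-04) and from 64.1 CPM and 67.0 CPM to 46.5 CPM and 48.1 CPM at 24 h (-0.47, adjusted p = 6.55e-05). The HRG libraries read 55.6 CPM and 59.7 CPM at 12 h (-0.25, adjusted p = 0.0471) and 57.0 CPM and 49.4 CPM at 24 h (-0.29, adjusted p = 0.0338). These HRG calls were near the threshold. The 12 h call was lost in 13 of 20 left-out libraries and 4 of 8 other settings, and the 24 h call without HRG replicate 2 (-0.19), vehicle replicate 1 (-0.32) or vehicle replicate 2 (-0.24). The HRG effect at 24 h was weaker in BT474R than in BT474 by 0.40 (SE 0.10, adjusted p = 0.0136, with 3.33% of all genes called). This difference was lost without BT474R HRG replicate 1 (0.30), BT474R vehicle replicate 1 (0.37), BT474 HRG replicate 2 (0.34) or BT474 vehicle replicate 1 (0.36).

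MXD3, another antagonist, in BT474 at 12 h went from 6.42 CPM and 6.59 CPM in vehicle to 5.02 CPM and 4.46 CPM with EGF (-0.47, adjusted p = 0.0112) and to 5.87 CPM and 4.69 CPM with HRG (-0.34, adjusted p = 0.0402), and EGF also lowered it at 24 h (-0.33, adjusted p = 0.0359). The EGF calls were lost at 12 h without EGF replicate 2 (-0.39) or vehicle replicate 2 (-0.44), and at 24 h without EGF replicate 1 (-0.24) or vehicle replicate 2 (-0.21). The HRG call was lost in 5 of 20 left-out libraries, with -0.19 without HRG replicate 2. In BT474R, MXD3 gave 6 negative fold changes from -0.56 to -0.06, none of them called. Tested between the lines, no ligand effect on MXD3 was called either (-0.41 to 0.27).

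MNT rose at 1 h in BT474 from 33.7 CPM and 36.8 CPM to 41.2 CPM and 42.6 CPM with EGF (0.23, adjusted p = 0.0269) and to 42.8 CPM and 42.9 CPM with HRG (0.27, adjusted p = 0.00447), and HRG lowered it at 12 h (-0.19, adjusted p = 0.0167). At 1 h the EGF call was lost without EGF replicate 1 (0.26), EGF replicate 2 (0.19) or vehicle replicate 1 (0.20), and the HRG call without HRG replicate 2 (0.26) or vehicle replicate 1 (0.24). At 12 h it was lost without vehicle replicate 1 (-0.18), vehicle replicate 2 (-0.17) or HRG replicate 2 (-0.13). In BT474R, EGF raised MNT at 24 h from 43.5 CPM and 46.1 CPM to 57.1 CPM and 58.8 CPM (0.37, SE 0.08, adjusted p = 0.00193), a call kept without each library in turn.

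MLX, the partner of the MondoA branch, rose a little in BT474 at 12 h and 24 h. HRG took it from 36.0 CPM and 37.5 CPM to 41.9 CPM and 45.0 CPM at 12 h (0.21, adjusted p = 0.00476) and from 38.9 CPM and 36.7 CPM to 45.7 CPM and 43.96 CPM at 24 h (0.23, adjusted p = 0.00312), and EGF gave 0.17 and 0.18 (adjusted p = 0.04 and 0.0354). The HRG calls were lost at 12 h without vehicle replicate 1 (0.19) or HRG replicate 2 (0.15), and at 24 h without HRG replicate 1 (0.19) or vehicle replicate 2 (0.20). Each EGF call was lost without any of 3 of the 4 libraries compared (0.14 to 0.20). In BT474R no MLX change was called, although EGF at 24 h (0.22) was called when either HRG library of 24 h was left out. Tested between the lines with all libraries, no ligand effect on MLX was called either (-0.20 to 0.04).

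The ligand effects were also compared over time. Between 1 h and 12 h, 6 members changed their EGF effect in BT474 (7.72% of all genes called), 7 their HRG effect in BT474 (14.2%), 2 their EGF effect in BT474R (4.43%) and 0 their HRG effect in BT474R (0.992%). Between 12 h and 24 h no member was called for EGF in BT474 (0.517%), HRG in BT474 (2.50%), EGF in BT474R (0.185%) or HRG in BT474R (0.0288%). Among these uncalled comparisons, MYC (0.80) and MYCN (0.48) passed an unadjusted p of 0.05 for HRG in BT474R from 1 h to 12 h. From 12 h to 24 h, 1, 2, 4 and 0 members did so in the order given, and DESeq2 called 0 in each. Between the lines, the EGF effect at 1 h was called for 0 members (0.138%), with MYCN (0.87) at an unadjusted p below 0.05 and 0 called by DESeq2.

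Some members differed between vehicle and T0 without ligand. The vehicle cells had both a change of medium and more time in culture than T0, which cannot be told apart. In BT474, MYC in vehicle differed from T0 by -0.59 at 12 h (adjusted p = 8.47e-09) and by -0.39 at 24 h (adjusted p = 1.02e-05), from the 47.5 CPM and 49.9 CPM of T0. In BT474R it rose in vehicle at 1 h by 1.10 (adjusted p = 0.0015), from 3.84 CPM and 3.93 CPM to 9.09 CPM and 7.68 CPM, and at 24 h its difference from T0 was -1.29 (adjusted p = 0.00134). MXD1 and MXI1 in BT474R were higher at 24 h than at T0 by 0.70 and 0.77 (adjusted p = 1.46e-04 and 4.52e-04), and without vehicle replicate 2 by 0.50 and 0.54. MXD3 in BT474R rose by 0.64 at 24 h (lost without T0 replicate 1 at 0.74, T0 replicate 2 at 0.48 or vehicle replicate 2 at 0.51). In BT474, MXD3 changed by -0.46 at 12 h (lost without T0 replicate 1 at -0.49, T0 replicate 2 at -0.45 or vehicle replicate 1 at -0.44), MXI1 by -0.42 at 1 h (lost without any of its 4 libraries, -0.55 to -0.34), and MYCN rose by 0.68 at 24 h (lost without vehicle replicate 2 at 0.26 or T0 replicate 1 at 0.51). In BT474 these made 1 called member at 1 h (6.61% of all genes), 2 at 12 h (6.41%) and 2 at 24 h (11.4%), and in BT474R 1 at 1 h (2.24%), 0 at 12 h (1.13%) and 4 at 24 h (13.7%). At 12 h, 0 members also passed an unadjusted p of 0.05 or were called by DESeq2.

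The balance of activators and antagonists was summarized in each library as the mean log2 CPM of MYC, MYCN and MYCL minus the mean log2 CPM of MXD1, MXI1, MXD3, MXD4 and MNT. It weights each gene alike, whatever its level, and carries no test. At T0 it was -0.95 and -0.89 in the libraries of BT474 and -1.23 and -1.16 in those of BT474R, a line difference of -0.27 ± 0.07 (SD of the difference, n = 2). The opposite directions of MYC and of MYCN and MYCL nearly cancelled in the activator mean, which was 3.51 in BT474 and 3.36 in BT474R. With MYC as the only activator the line difference at T0 was -3.75.

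At 1 h, the balance in BT474 moved down from -0.77 and -0.85 in vehicle to -1.16 and -1.23 with EGF and -1.18 and -1.17 with HRG. Vehicle and ligand libraries did not overlap, with a shift of -0.38 ± 0.07 for EGF and -0.36 ± 0.05 for HRG, in which the fall of MYCN offset the rise of MYC while the antagonist mean rose from 4.41 to 4.67 and 4.64. Scored by MYC alone the same shifts were 0.74 and 1.03, and by summed CPM 0.61 and 0.86, so the direction at 1 h in BT474 depended on how the activators were combined. In BT474R the shifts at 1 h were 0.08 ± 0.05 with EGF and 0.01 ± 0.04 with HRG, above those of BT474 by 0.47 ± 0.09 and 0.37 ± 0.07. By summed CPM that difference between the lines had the opposite sign (-0.59 ± 0.10 and -0.87 ± 0.13), and by MYC alone it was 0.11 ± 0.15 and -0.70 ± 0.18. At 12 h, the balance rose in both lines by each of these scorings. In BT474 the shift was 0.31 ± 0.13 with EGF and 0.37 ± 0.11 with HRG, and in BT474R it was 0.90 ± 0.12 with EGF and 0.53 ± 0.14 with HRG. The parts behind these shifts differed between the lines. In BT474 the activator mean was 3.40 in vehicle, 3.46 with EGF and 3.46 with HRG, and the antagonist mean was 4.39, 4.14 and 4.07. In BT474R the activator mean was 3.22, 4.13 and 3.75 in the same order, and the antagonist mean was 4.61 in each. The shift thus lay mainly in the antagonists in BT474 and in the activators in BT474R.

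At 24 h, shifts in BT474 (0.08 ± 0.22 and 0.13 ± 0.30) and with HRG in BT474R (0.22 ± 0.35) were within the spread of the libraries, while EGF-BT474R was above vehicle by 0.50 ± 0.19. For HRG-BT474 the shift at 24 h was 0.26 ± 0.06 by MYC alone and 0.30 ± 0.11 by summed CPM, larger than the spread. The EGF-BT474R libraries read -1.74 and -1.71 against -2.36 and -2.10 in vehicle. The vehicle value at 24 h in BT474R was shifted by -1.03 from its T0, and by -1.14 from BT474 vehicle, the widest gap between the lines.

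**Figure D4:**
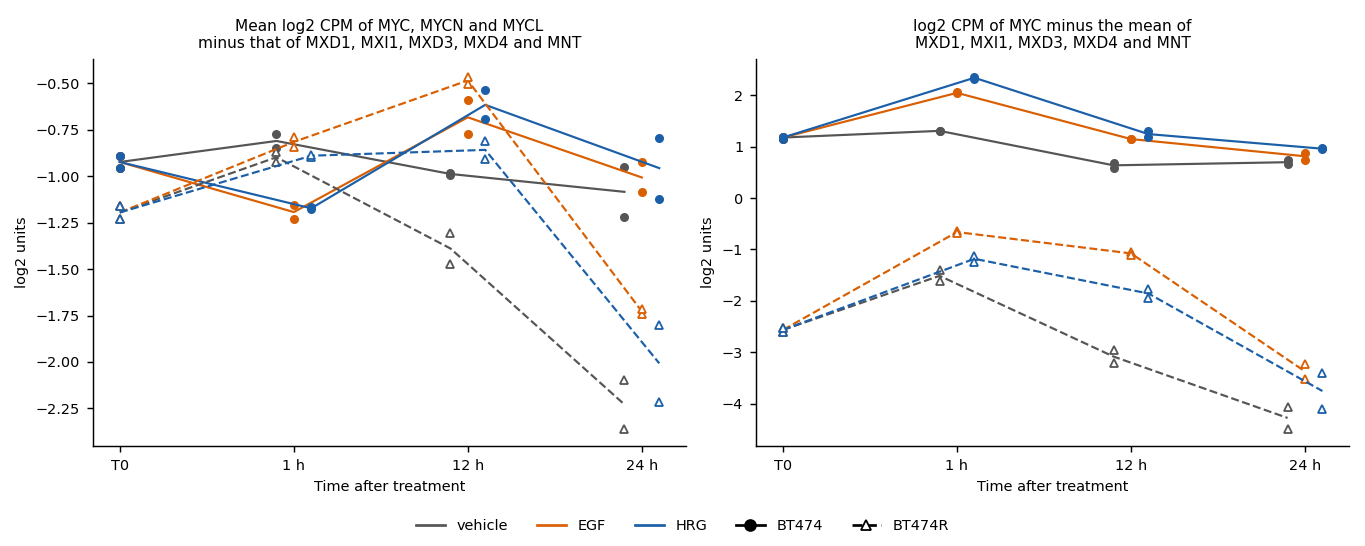
Balance in log2 units against time, with a point per library and lines through the mean of 2, circles for BT474 and triangles for BT474R, in grey for vehicle, orange for EGF and blue for HRG. On the left, with all 3 MYC genes as activators, ligand at 1 h lowers the balance of BT474 (-0.38 and -0.36), and on the right, with MYC alone, the same libraries move up (0.74 and 1.03).

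Genes that the network is described to control were taken from lists written from general knowledge, with earlier results of these data known. Counts of list genes are therefore descriptions, and an excess over all genes was not tested. Of 30 genes known to be induced by MYC, with functions in nucleolar work, polyamine synthesis and metabolism, 20 were higher and 0 lower in EGF-BT474 at 12 h (median log2 fold change 0.21, against -0.03 over all genes tested, of which 16.0% were called) and 16 higher and 0 lower at 24 h (16.4% of all genes called), after 0 called at 1 h (2.19%, with 9 higher and 1 lower at an unadjusted p below 0.05). In HRG-BT474, 20 were higher and 1 lower at 12 h (median 0.36, with 25.8% of all genes called) and 20 higher and 1 lower at 24 h (24.1%), after 3 higher at 1 h (2.77%). ODC1, the first enzyme of polyamine synthesis, went in BT474 at 12 h from 29.1 CPM and 30.4 CPM to 49.1 CPM and 47.0 CPM with EGF and 55.7 CPM and 59.2 CPM with HRG (0.68 and 0.92). The glycolytic enzymes ENO1 (0.44 and 0.57) and LDHA (0.42 and 0.54), and with HRG the transferrin receptor TFRC (0.53), rose with it at 12 h.

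In EGF-BT474R, 6 of the 30 were higher at 12 h (median 0.13, with 12.0% of all genes called) and 11 at 24 h (median 0.14, with 17.3% called), led by ENO1 (0.85 at 12 h and 0.79 at 24 h) and by MTHFD2 of the folate pathway (0.50 at 24 h). In HRG-BT474R, 0 were called at 12 h (4.12% of all genes, with 7 of the 30 higher and 1 lower at an unadjusted p below 0.05) and 3 were higher at 24 h (2.78%), MTHFD2 (0.31), DKC1 (0.31) and HSPD1 (0.18). Tested between the lines, the HRG effect was lower in BT474R than in BT474 for 9 of the 30 genes at 12 h (4.07% of all genes called) and for 3 at 24 h (3.33%), and the EGF effect for 1 at 12 h (1.96%) and 0 at 24 h (4.01%). At an unadjusted p below 0.05 these were 17, 12, 9 and 2 genes lower in BT474R, with 1, 2, 1 and 1 higher. The counts of 20 and 6 genes after EGF at 12 h are not themselves a test of a difference between the lines. The direct test called 1 gene lower, with 9 lower and 1 higher at an unadjusted p below 0.05. Between the lines at T0, 10 of the 30 were higher and 15 lower in BT474R (median -0.14, against 0.00 over all genes, of which 46.9% were called), with ODC1 higher by 1.27 and APEX1 lower (-0.83).

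**Figure D5:**
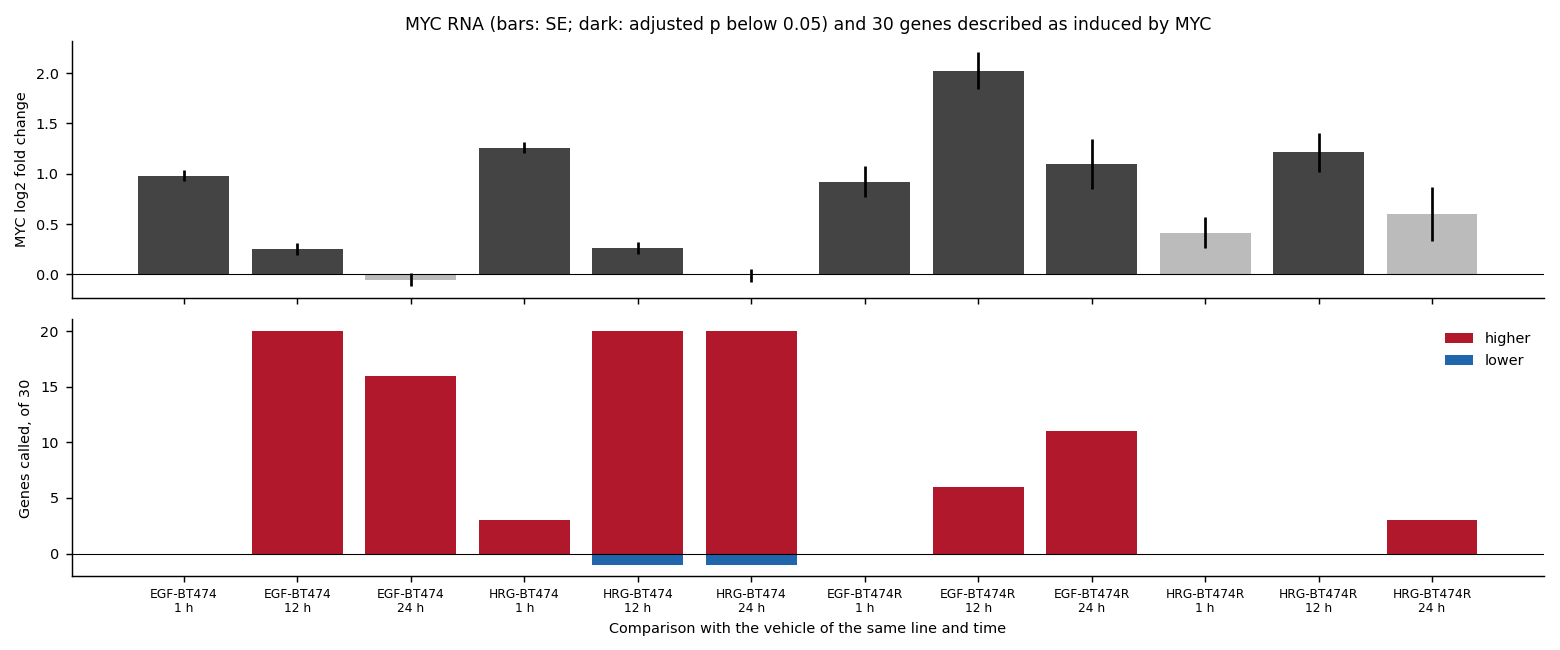
Upper panel, log2 fold change of MYC (bars with SE, dark where called) and lower panel, number of the 30 MYC-induced genes called higher (red) or lower (blue), for 12 comparisons of ligand with vehicle. The counts reach 20 in BT474 at 12 h, where MYC rose by 0.25 and 0.26. They are 6 in EGF-BT474R at 12 h, where MYC rose by 2.02. Tested between the lines, the EGF effect at 12 h was called for 1 of the 30 genes. At an unadjusted p below 0.05 it was lower in BT474R for 9 genes and higher for 1.

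Of 8 genes described as repressed by MYC, CDKN1A, the cell cycle inhibitor p21, rose with either ligand in BT474 and with EGF in BT474R at 12 h (1.03, 1.37 and 1.24) and 24 h (1.39, 1.26 and 1.16). THBS1 (0.99 and 1.38) and the cell cycle inhibitor CDKN2B (0.82 and 0.94) rose in BT474 at 1 h, and in EGF-BT474R CDKN2B rose at 24 h (1.68). At 24 h in BT474 both fell, CDKN2B by log2 fold changes of -0.65 with EGF and -0.73 with HRG and THBS1 by -0.24 and -0.54. THBS1 also fell at 24 h in BT474R (-0.30 with EGF and -0.32 with HRG), and the stress-induced gene GADD45A fell in EGF-BT474R at the 3 time points (-0.49, -0.62 and -0.58). In counts, EGF-BT474 had 3 of the 8 higher and 0 lower at 1 h (2.19% of all genes called), 2 and 1 at 12 h (16.0%) and 2 and 2 at 24 h (16.4%). HRG-BT474 had 3 and 1 at 1 h (2.77%), 2 and 2 at 12 h (25.8%) and 2 and 4 at 24 h (24.1%). EGF-BT474R had 0 and 1 at 1 h (0.457%), 1 and 2 at 12 h (12.0%) and 2 and 4 at 24 h (17.3%), and HRG-BT474R had 0 called at 1 h (0.169%) and at 12 h (4.12%), with 2 and 3 genes at an unadjusted p below 0.05, and 1 lower at 24 h (2.78%). NDRG1 was higher in BT474R at T0 by 2.23 and CDKN2B lower (-1.67), 3 of the 8 being higher and 1 lower (46.9% of all genes called).

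The MLX partners differed between the lines, with MLXIPL higher in BT474R at T0 by 1.16, MLXIP by 0.89 and the MAX partner MGA by 0.17. Of the 2 MondoA targets, TXNIP fell in BT474. Its changes were -0.25 with EGF and -0.36 with HRG at 1 h, and -0.19 and -0.38 at 12 h. ARRDC4 rose in BT474 at 12 h (0.25 and 0.39). Of all genes, 2.19% were called in BT474 with EGF and 2.77% with HRG at 1 h, and 16.0% and 25.8% at 12 h. In BT474R neither target was called after ligand or passed an unadjusted p of 0.05. All-gene shares in BT474R rose with time from 0.457% to 12.0% and 17.3% for EGF. For HRG they went from 0.169% to 4.12% and 2.78%. At T0 both targets were higher in BT474R, TXNIP by 0.53 and ARRDC4 by 0.45, where 46.9% of all genes were called.

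Of 10 genes that act on the stability of MYC protein, CIP2A and AURKA, which are described as stabilizing it, rose in BT474 at 12 h (0.33 and 0.16 with EGF, 0.58 and 0.36 with HRG). In BT474R they rose at 12 h as well (0.29 and 0.23 with EGF, 0.27 and 0.21 with HRG). FBXW7, the ubiquitin ligase that targets MYC for degradation, rose in BT474 at 12 h (0.34 with either ligand) and fell in EGF-BT474R (-0.27 at 12 h and -0.46 at 24 h), and at T0 it was higher in BT474R by 0.82. At 12 h, 3 of the 10 were higher and 0 lower in EGF-BT474 (16.0% of all genes called), 4 and 0 in HRG-BT474 (25.8%), 2 and 1 in EGF-BT474R (12.0%) and 2 and 0 in HRG-BT474R (4.12%). Of 14 chromatin cofactors, 3 were higher in BT474 at 12 h after either ligand, the ATPases RUVBL1 and RUVBL2 (0.30 and 0.19 with EGF, 0.43 and 0.28 with HRG) and WDR5, with 1 lower after EGF (16.0% of all genes called) and 3 lower after HRG (25.8%). In BT474R at 12 h, 1 cofactor was lower after EGF (12.0%) and 0 were called after HRG (4.12%), with 1 higher at an unadjusted p below 0.05.

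Parts of all 10 members share exon sequence with a neighbouring gene in GENCODE v44, from 1.16% of the exon length for MXD4 to 24.2% for MXD3 with PRELID1. Where the neighbour is on the opposite strand, reads from those parts cannot be told apart if the counting did not use strand. The strand setting is not given in the sources used here. RAB24 with MXD3 (19.5%), SNRNP27 with MXD1 (3.73%) and MIR4800 with MXD4 (1.16%) share the strand, so strand would not separate them.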

How the data were processed

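RNA of BT474 and BT474R cells was sequenced as 40 libraries, prepared with an mRNA kit. The authors trimmed the reads with Trim Galore 0.6.6, aligned them to GRCh38.p13 and counted them per gene with featureCounts, and the deposited table holds whole-number counts that were not normalized. The annotation release and the strand setting are not given in the sources used here. Samples were grouped by the labels, and each table column was matched to a sample by the column name in its description.

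Here counts were fitted with edgeR 4.0.16 in R 4.3.3 (TMM scaling, quasi-likelihood F test), after dropping genes with 0 counts in over 50% of the libraries fitted. Each line was fitted alone (25146 genes in BT474, 24287 in BT474R), and both together (24641 genes) for differences between lines and between ligand effects. P-values were adjusted by Benjamini-Hochberg over all genes tested, a gene was called below 0.05, and SE is the log2 fold change over the root of F. Log2 CPM used a prior count of 2. Up to 4 list genes were named per comparison, those called with the largest changes and with groups that did not overlap. The members and lists were chosen with earlier results of these data known. Alternatives were the DESeq2 1.42.0 test, DESeq2 size factors in edgeR, other filters, summed copy rows, a replicate block, other sets of libraries and each library left out, for which the filter and the dispersion trend of the full fit were kept. The procedure was tested on simulated data. Promoter windows came from RefSeq, and transcript lengths and exon overlaps from GENCODE v44.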

Additional observations from a re-analysis of the deposited data

Results flagged for a closer look

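These results were singled out because an effect differed between times or between lines by a test of the difference itself, in the fits across all genes described above. In BT474 the EGF effect at 12 h minus that at 1 h was -0.73 for MYC, 1.94 for MYCN, -0.84 for MXD1, -0.79 for MXI1, -0.28 for MXD4 and -0.27 for MNT, 6 of the 10 members, where 7.72% of all genes were called. The HRG effect in BT474 changed over the same interval by -0.997 for MYC, 1.94 for MYCN, -0.33 for MAX, -0.99 for MXD1, -0.89 for MXI1, -0.43 for MXD4 and -0.46 for MNT, 7 members, where 14.2% of all genes were called. In EGF-BT474R it changed by 1.10 for MYC and 1.08 for MYCN (4.43% of all genes called). The EGF value of MXI1 was -0.55 and not called without BT474 EGF 12 h replicate 1, that of MYC in BT474R was not called without vehicle 1 h replicate 1 (0.98), vehicle 12 h replicate 1 (0.97) or EGF 12 h replicate 1 (1.02), and the EGF values of MXD4 and MNT in BT474 were not called when 5 and 6 of the 20 libraries were left out.

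Between the lines, as BT474R minus BT474, the EGF effect differed by 1.75 at 12 h and 1.14 at 24 h for MYC and by 0.79 at 24 h for MXD1. The HRG effect differed at 1 h by -0.85 for MYC, 1.42 for MYCN and -0.53 for MXD1, at 12 h by 0.94 for MYC and at 24 h by 0.40 for MXD4.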

How the results depend on the processing

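The 6 counts of called members kept within 1.5 times their value under the other settings, apart from HRG against EGF, which went from 6 to 2 when only the 4 libraries compared were fitted, and ligand effects between the lines, which went from 8 to 16 without the filter. With each library left out in turn, the counts ranged from 40 to 54 for ligand against vehicle, 4 to 9 for HRG against EGF, 7 to 11 for vehicle against T0, 12 to 18 over time, 30 to 35 between the lines and 6 to 17 for ligand effects between the lines, with 17 without BT474R HRG 24 h replicate 1 and 14 without replicate 2. Of 122 calls, 94 were kept under every other setting and 76 without each library in turn, and none turned its direction. With MYC as the only activator, the balance shifts were 0.74, reversed, at 1 h and 0.51 at 12 h for EGF-BT474, 1.03, reversed, and 0.61 for HRG-BT474, 0.85 (1 h), 2.01 (12 h) and 0.91 (24 h) for EGF-BT474R, 0.33 and 1.23 at 1 h and 12 h for HRG-BT474R, and -3.75 between the lines at T0. By summed CPM they were 0.61 and 0.86 (both reversed) for EGF-BT474 and HRG-BT474 at 1 h, 0.54 for HRG-BT474 at 12 h, 0.024 and 0.62 for EGF-BT474R at 1 h and 12 h, 0.34 for HRG-BT474R at 12 h and -0.74 between the lines at T0. The cause of the changed counts was not tested. A replicate block gained 7 calls and lost 0 of 420 comparisons. Same-numbered libraries deviated together in 3 of 12 checks (correlations from -0.093 to 0.385), and the numbers were not taken as pairs. These 3 checks were all at 24 h, in EGF-BT474 (0.134), HRG-BT474 (0.263) and HRG-BT474R (0.385). Levels near 1 CPM, such as MYC in BT474R at 24 h (32 counts at the lowest), limit what can be called there.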

Other observations

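Over the 20 group means centred within each line, the genes whose pattern was most like that of MYC, among 13083 genes, were CHMP7 (r = 0.940), RNF39 (0.898), TFAP2C (0.895), FAM214A (0.893) and TRAF4 (0.892). For MYCN they were DUSP7 (0.940), LOC105378936 (0.915), DDX55 (0.911), IQCC (0.897) and CBX2 (0.888). These are descriptions over groups that share lines and time points, and no test was made.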
